A study of Homo sapiens with 22 samples.

Results

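In the human neuroblastoma line SK-N-AS, 62 of the 35237 genes of the count table were near silent before treatment and clearly expressed after 30 days of PP121 and bufalin. A gene was a member when its level in CPM, its count per 1000000 counts of the library, was under 0.5 in each of 4 untreated libraries and over 10 in each of 4 libraries taken at the end of the treatment. The difference between those groups therefore chose the genes and is described here without a test. The untreated SK-N-AS cells (n = 4) were grown in DMEM with 10% serum. The S1D4 group (n = 4) had 4 days of 5 µM PP121 in DMEM with 1% serum. The S2D4 group (n = 4) was S1D4 cells moved to Neurobasal medium with B27, with no serum listed, and given 5 µM PP121 plus 100 nM bufalin for 4 days. The S2D30 group (n = 4) was handled like S2D4 for 30 days. GIMEN, the other line, was sampled untreated in RPMI with 10% serum (n = 3) and as D30 (n = 3), after 30 days of 2.5 µM PP121 plus 10 nM bufalin in RPMI with 1% serum. S2D4 and S2D30 had the same listed drugs and medium and differed in the length of treatment. Between the other groups compared, drug, serum and time changed together, and from S1D4 to S2D4 the medium too. The parts of these changes cannot be told apart.

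PP121 blocks both tyrosine kinases and kinases of the PI3K and mTOR family, and bufalin is a toad-venom steroid that blocks the sodium-potassium pump. Neuroblastoma cell lines occur in an adrenergic state, marked by sympathetic regulators such as HAND2, and in a mesenchymal state, marked by genes such as PRRX1 and VIM. Chemokines are small secreted proteins that attract leukocytes through G-protein-coupled receptors. Ligands of the epidermal growth factor family, such as amphiregulin and epiregulin, are shed from the membrane and act on neighbouring cells. Matrix metalloproteinases are secreted enzymes that cleave extracellular matrix. Genes for all of these protein types are found among the 62.

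Totals ran from 16456484 to 37506800 counts per library. Both lines are labelled mesenchymal, and 13 of 15 mesenchymal markers exceeded 1 CPM in every library of each group. The 10 adrenergic markers used here nevertheless summed to between 4480 and 10470 CPM in untreated SK-N-AS, led by CHGA and HAND2, and to between 268 and 332 CPM in S2D30. In untreated GIMEN these 10 markers summed to between 415 and 438 CPM, led by HAND2 at a mean of 319 CPM, with PHOX2A and TH at 0 counts. In GIMEN D30 the sum was between 327 and 425 CPM. Leukocyte markers (20 genes) summed to 207 to 264 CPM in untreated SK-N-AS and 189 to 245 CPM in S2D30, where CD2, CD3D, CD3E, MS4A1 and TYROBP were at 0. These sums were made up differently: PTPRC had a mean of 193 CPM in untreated SK-N-AS and 0.841 CPM in S2D30, while CD68 went from 14.3 to 122 CPM, LCP1 from 0.584 to 67.2 CPM and ITGAX from 0.36 to 25.2 CPM. In GIMEN, leukocyte markers summed to 104 to 117 CPM untreated and 182 to 401 CPM in D30 (CD68 at means of 82.2 and 265 CPM), and endothelial markers to 8.43 to 9.46 and 24.9 to 34.4 CPM (PECAM1 at 2.46 and 25.3 CPM). Epithelial markers (8 genes) summed to at most 0.852 CPM in S2D30, with KRT5 and KRT14 at 0. Schwann and glial markers (14 genes) went from 170 to 222 CPM in untreated cells to 102 to 119 CPM in S2D30, and endothelial markers (8 genes) from 7.20 to 14.6 CPM to 4.06 to 8.41 CPM. The part of these marker levels in the results was not tested. Replicate 4 of S2D4 stood apart from the other 3 libraries of its group: the summed level of the 62 genes was 1245, 1171 and 1192 CPM in replicates 1 to 3 and 499 CPM in replicate 4. It lay below all 3 others for 53 members, above them for 7 and within their range for 2. The share of all genes was not worked out. Over all genes with enough counts replicate 4 stood apart too. The disagreement between 2 libraries, as chi-square per degree of freedom, was 109 to 122 with replicate 4 and 3.77 to 6.27 among the other 3. These counts are thus not particular to the members. Counts and class medians that rest on S2D4 are given with and without replicate 4. Single-gene changes from S1D4 to S2D4 use all 4 libraries: without replicate 4, a call or sign changed or a fold moved by over 1.5 times for 5 members (SPINK4, RBBP8NL, CCL3L3, IL36B and COLEC10), whose values without it are given too.

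By function, 32 of the 62 genes fell into 5 classes of mainly secreted proteins. These were 6 chemokines, 4 cytokines or cytokine antagonists, 7 growth factors or their extracellular modulators, 7 proteases or protease inhibitors and 8 matrix or other secreted proteins. The other members were 7 membrane proteins, 5 transcription factors, 6 intracellular enzymes or signalling regulators, 6 cytoskeletal, muscle or calcium-binding proteins and 6 pseudogenes or genes of unassigned function. Summed over all 62 genes, the level was 5.64 to 8.87 CPM in untreated cells, 86.9 to 104 CPM in S1D4 and 5743 to 6247 CPM in S2D30. In bulk RNA, more cells that express a gene and more RNA per cell cannot be told apart.

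**Figure D1:**
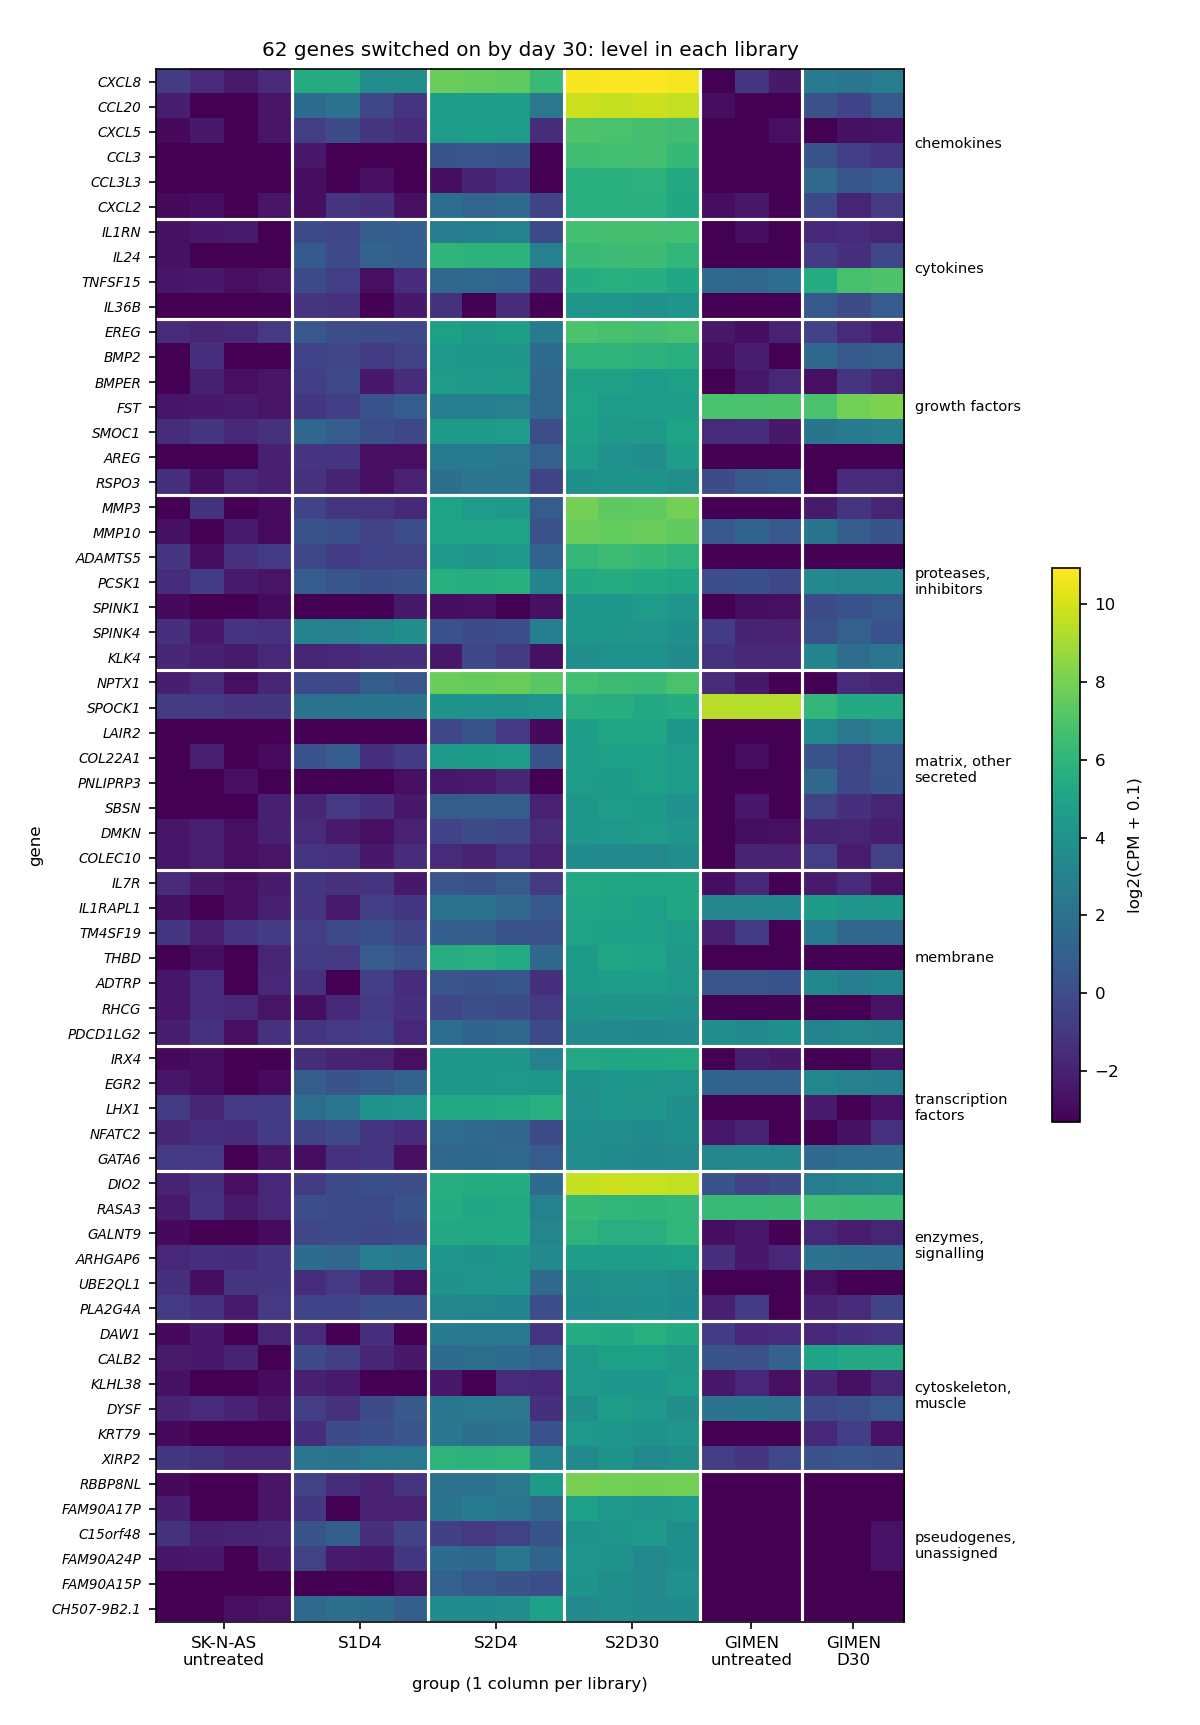
Level of each of the 62 genes (rows, grouped by function) in each of the 22 libraries (columns, grouped by treatment), as log2(CPM + 0.1) in colour. The 4 untreated SK-N-AS columns are dark and the 4 S2D30 columns bright by the choice of genes, while the GIMEN columns are dark for most genes and bright for SPOCK1, FST and RASA3.

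Most of the members came up late. With "on" meaning over 10 CPM in each library of a group and "off" meaning under 0.5 CPM in each, 1 gene (CXCL8) was on in S1D4, 39 were between the limits and 22 were off. In S2D4, 7 were on: CXCL8, ARHGAP6, CH507-9B2.1, EGR2, LHX1, NPTX1 and SPOCK1. Another 49 were between, and 6 were still off, namely CCL3L3, COLEC10, IL36B, KLHL38, PNLIPRP3 and SPINK1. Without S2D4 replicate 4, 26 were on, 30 between and 6 off, so the number on in S2D4 rests on that library. The median member stood at 1.32% of its S2D30 mean in S1D4 and at 17% in S2D4 (21.8% without replicate 4). In S2D4, 26 members were below 10% of their S2D30 mean (23 without replicate 4).

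**Figure D2:**
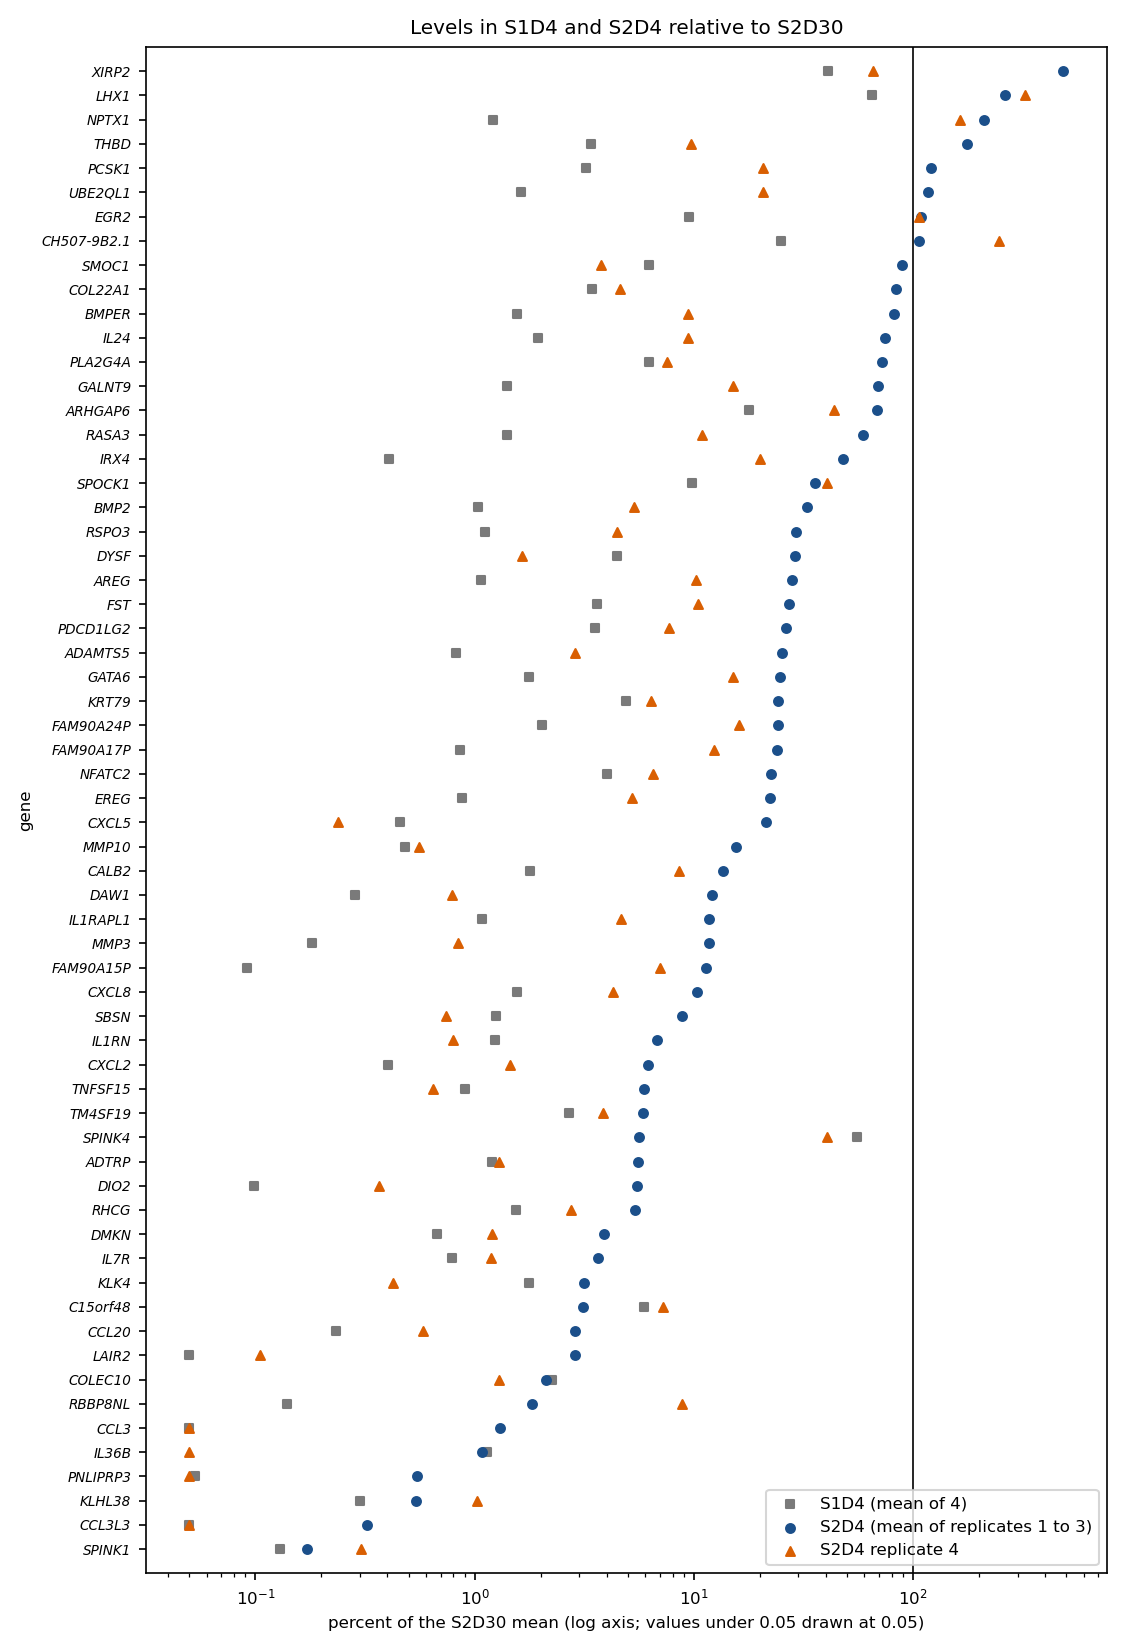
Level of each member (rows) in S1D4 (squares, mean of 4 libraries), in S2D4 replicates 1 to 3 (circles, mean) and in S2D4 replicate 4 (triangles), as a percent of its mean in S2D30 on a log axis. The vertical line marks 100%; XIRP2, LHX1, NPTX1 and THBD lie to its right in replicates 1 to 3, SPINK1, CCL3L3 and KLHL38 lie near the left edge, and most triangles lie left of their circles.

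The step from S1D4 to S2D4 involves no library that chose the genes, but both groups lie between those that did in the course of treatment. It was tested with edgeR's quasi-likelihood test. Of the 62 members, 54 were higher in S2D4 at an adjusted p under 0.05 (87.1%), against 28.3% of the 15810 genes tested. That model also held S2D30, and 14 members had too few counts in S1D4 and S2D4 to pass the filter without it. In a model of only the 8 libraries compared, 46 of the 62 were higher (74.2%), against 27.8% of the 14716 genes tested, and none was lower (SPINK4, the only one lower with S2D30 in the model, had an adjusted p of 0.0626). The 14 members not tested there were CCL3, DAW1, DMKN, IL7R, LAIR2, PNLIPRP3, RHCG and SBSN, all among the 54, and CCL3L3, COLEC10, IL36B, KLHL38, KLK4 and SPINK1. In the model of 16 libraries, only SPINK4 was lower (1.61% of members, against 26.8% of all genes tested), and C15orf48, CCL3L3, COLEC10, IL36B, KLHL38, KLK4 and SPINK1 did not pass. The 22 members that were off in S1D4 had little room to fall. The rule also set a low start and a high end, and the median member was at 1.32% of its S2D30 mean in S1D4. A rise at this step is thus partly built into the choice, and the shares are not evidence independent of it. The same holds for the counts per class below, which are not results about the classes. The median log2 fold change was 3.44 over the members (3.38 with LAIR2, at 0 in S1D4, set at its bound; 3.70 without replicate 4 of S2D4) and 0.02 over all genes tested. For 42 members each S2D4 library lay above each S1D4 library, against 16% of all genes tested, and for SPINK4 each lay below, against 34.3%. Without replicate 4 of S2D4, the libraries lay above for 54 members, against 23.6% of all genes tested, and below for 1, against 40.8%, and 55 members were higher and 1 lower by the test. Since the labels do not say that replicates were separate cultures, these p-values measure only the spread between the libraries.

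The chemokines CXCL8, CCL20, CXCL5, CCL3, CCL3L3 and CXCL2 made up the class with the lowest median in S2D4, 3.66% of the S2D30 level (4.54% without replicate 4). CXCL8, the neutrophil attractant interleukin-8, was at 0.480, 0.232, 0.104 and 0.242 CPM in untreated cells and at 44.1, 43.6, 12.7 and 13.2 CPM in S1D4. It reached 202, 190, 177 and 78.3 CPM in S2D4 and 1793, 1850, 1956 and 1706 CPM in S2D30. Its S1D4 libraries split into a higher pair (replicates 1 and 2) and a lower pair, both well above untreated, and the groups did not overlap at any step. Over all members, replicates 1 and 2 of S1D4 both lay above 3 and 4 in 22 and both below in 17. The share of all genes so split was not worked out. Over all genes with enough counts the 2 pairs also stood apart. Chi-square per degree of freedom was 6.7 and 3.16 within the pairs and 24.1 to 27.4 across them. From S1D4 to S2D4 CXCL8 rose by 2.70 on the log2 scale (SE 0.38, adjusted p = 1.65e-05). Per kilobase of annotated exon, its S2D30 level of 803 CPM per kb was the highest among the 59 members with an exon model.

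CCL20, which attracts cells bearing CCR6, was at 0.133, 0, 0 and 0.0693 CPM in untreated cells and at 3.08, 3.83, 0.715 and 0.351 CPM in S1D4. In S2D4 it was at 24.9, 24.8, 24.0 and 4.96 CPM, and in S2D30 at 870, 833, 926 and 788 CPM. Most of its level thus came between day 4 and day 30 of the combined treatment, with every S2D30 library far above every S2D4 library. From S1D4 to S2D4 it rose by 3.48 on the log2 scale (SE 0.52, adjusted p = 3.07e-05), and its S2D30 level per length was 536 CPM per kb. CXCL5, another neutrophil attractant, was at 22.4, 25.1 and 23 CPM in S2D4 replicates 1 to 3 but at 0.263 CPM in replicate 4, inside the S1D4 range of 0.251 to 0.892 CPM. Its S2D30 level was 111 ± 13.1 CPM (SD, n = 4), and it rose from S1D4 to S2D4 by 5.30 on the log2 scale (SE 0.84, adjusted p = 5.69e-05). CXCL2, of the same family, rose by 3.79 (SE 0.52, adjusted p = 1.43e-05) and stood at 46.2 ± 6.17 CPM in S2D30.

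CCL3, a monocyte attractant, had no counts in untreated cells and 2 counts in S1D4, all in replicate 1. It was at 1.19, 1.28, 1.20 and 0 CPM in S2D4 and at 93.7, 99.6, 105 and 75.9 CPM in S2D30. Its near-identical copy CCL3L3 was still at 0.278 CPM or less in S2D4 and at 49.8 ± 8.06 CPM in S2D30. CCL3 entered the test of the step to S2D4 only through its S2D30 counts, which chose it, so no p is given. So did CCL3L3, with at most 1 count in any S1D4 library and at most 6 in any S2D4 library, and no p is given for it either. It did not pass with all libraries (log2 fold change 2.1, SE 1.06), and its call changed without replicate 4 of S2D4 (2.64). At such counts the change in call is not read as a result. Of the 75-base stretches of CCL3 transcripts, 62.6% also occur, on either strand, in an overlapping antisense gene or in CCL3L1. CCL3L3 had no match in that annotation, so its own overlap with CCL3 was not measured. How reads were split between these genes is uncertain.

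The stretches just upstream of 6 secreted-protein genes are shown because each holds a match to a motif of a stress- or cytokine-responsive factor or a TATA box, and IRX4 is shown as a CpG-rich contrast without a match. Each runs 5′ to 3′ on the strand of the gene over the 250 bases before the RefSeq start site in GRCh38.p14, with matches to AP-1, CRE, NF-kappa-B and TATA-box motifs on either strand in capitals. The coordinates, in the order printed, are chr4:73740319-73740568 (plus strand, CXCL8), chr2:227813592-227813841 (plus strand, CCL20), chr4:73998678-73998927 (minus strand, CXCL5), chr4:74099196-74099445 (minus strand, CXCL2), chr4:74444886-74445135 (plus strand, AREG), chr9:114792531-114792780 (minus strand, TNFSF15) and chr5:1886946-1887195 (minus strand, IRX4).
CXCL8: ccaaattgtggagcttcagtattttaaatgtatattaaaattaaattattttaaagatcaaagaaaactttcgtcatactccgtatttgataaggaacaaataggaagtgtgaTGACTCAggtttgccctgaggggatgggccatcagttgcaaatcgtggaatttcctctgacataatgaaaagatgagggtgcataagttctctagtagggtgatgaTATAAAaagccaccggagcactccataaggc
CCL20: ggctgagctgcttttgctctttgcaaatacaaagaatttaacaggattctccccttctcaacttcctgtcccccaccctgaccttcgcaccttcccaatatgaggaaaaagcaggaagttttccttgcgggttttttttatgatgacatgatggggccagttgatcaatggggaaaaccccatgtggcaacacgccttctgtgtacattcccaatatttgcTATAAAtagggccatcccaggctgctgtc
CXCL5: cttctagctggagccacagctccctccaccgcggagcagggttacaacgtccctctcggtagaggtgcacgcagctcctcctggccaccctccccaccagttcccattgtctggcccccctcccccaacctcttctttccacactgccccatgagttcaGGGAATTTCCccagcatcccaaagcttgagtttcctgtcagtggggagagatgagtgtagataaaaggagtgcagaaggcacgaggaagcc
CXCL2: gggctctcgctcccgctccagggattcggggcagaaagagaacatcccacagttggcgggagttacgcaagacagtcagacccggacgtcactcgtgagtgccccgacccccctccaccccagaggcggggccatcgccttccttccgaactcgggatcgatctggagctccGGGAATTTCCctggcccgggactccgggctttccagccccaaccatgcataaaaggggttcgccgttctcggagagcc
AREG: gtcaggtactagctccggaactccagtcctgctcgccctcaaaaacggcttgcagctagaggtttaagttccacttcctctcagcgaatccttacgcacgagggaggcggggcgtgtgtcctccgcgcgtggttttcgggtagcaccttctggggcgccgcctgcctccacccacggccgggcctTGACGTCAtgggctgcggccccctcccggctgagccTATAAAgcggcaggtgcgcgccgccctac
TNFSF15: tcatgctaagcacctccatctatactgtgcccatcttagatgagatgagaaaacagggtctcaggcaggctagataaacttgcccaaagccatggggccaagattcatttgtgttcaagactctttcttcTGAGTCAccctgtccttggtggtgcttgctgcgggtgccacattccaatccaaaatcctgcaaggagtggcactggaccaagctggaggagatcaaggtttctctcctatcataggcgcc
IRX4: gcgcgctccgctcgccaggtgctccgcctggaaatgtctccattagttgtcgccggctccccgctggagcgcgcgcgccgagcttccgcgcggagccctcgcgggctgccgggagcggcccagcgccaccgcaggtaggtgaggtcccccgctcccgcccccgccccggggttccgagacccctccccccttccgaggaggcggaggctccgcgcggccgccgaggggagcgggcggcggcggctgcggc
In CXCL8 the AP-1 match starts 137 bases before the start site and the TATA match 31 bases before it. The NF-kappa-B matches of CXCL5 and CXCL2 start 91 and 78 bases before theirs. AREG has a CRE match at 65 and a TATA match at 29 bases, CCL20 a TATA match at 29 bases and TNFSF15 an AP-1 match at 120 bases.

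Among all members, 41 of 62 matched a RefSeq promoter. On either strand of these 250 bases, the TATA box TATAAA occurred in 11 of 41 (26.8%), against 11.1% of all 27305 promoters and 5.93% of the 11242 promoters of genes tested in SK-N-AS. The AP-1 motif TGAGTCA occurred in 6 (14.6%), against 4.16% and 2.8% of these sets. The NF-kappa-B motif occurred in 2 (4.88%, against 0.546% and 0.578%), the CRE motif TGACGTCA in 2 (4.88%, against 1.77% and 2.78%), GTAAACA, a FOXO motif, in 1 (2.44%, against 2.98% and 1.99%) and TTGCGCAA, a C/EBP motif, in 0 (against 0.11% and 0.213%). The observed-to-expected CpG ratio had a median of 0.432 over the members, 0.556 over all promoters and 0.805 over those of genes tested in SK-N-AS. The 21 members whose S2D4 percentage was below the member median had a median CpG ratio of 0.183, and the 20 at or above it had 0.659, both with and without replicate 4 of S2D4. Of the sequences printed, CXCL8, CCL20, CXCL5, CXCL2 and TNFSF15 are in the first group, with ratios of 0.470, 0.223, 0.287, 0.778 and 0.128, and AREG and IRX4 in the other, with 0.871 and 0.997. CXCL2 and C15orf48 (1.07) thus lay above the median of the other group. The ranges overlapped widely (0 to 1.07 and 0.115 to 0.997), and a match to letters is a description of the sequence only. Each motif was searched as a single pattern of letters, so sites written with other letters were not counted. The lack of a match, as for NF-kappa-B in CXCL8 and CCL20, thus does not show that a site is absent.

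The cytokine class came up at different times. IL24, an interleukin-10 family cytokine, was at 1.52, 0.787, 2.24 and 1.80 CPM in S1D4 and at 64.4, 58.5, 58.6 and 7.70 CPM in S2D4, against 81.6 ± 10.3 CPM in S2D30. It rose by 5.07 on the log2 scale (SE 0.51, adjusted p = 4.61e-07), and its S2D4 replicates 1 to 3 lay just below the S2D30 range of 67.9 to 92 CPM. IL1RN, the interleukin-1 receptor antagonist, rose by 2.26 (SE 0.47, adjusted p = 0.000736) to 5.42 ± 3.10 CPM and stood at 102 ± 4.06 CPM in S2D30. Its S2D4 replicate 4, at 0.817 CPM, lay inside the S1D4 range of 0.735 to 1.80 CPM. TNFSF15, a TNF-family ligand, rose by 2.46 (SE 0.57, adjusted p = 0.00162), with 0.292 CPM in S2D4 replicate 4 inside the S1D4 range, and by 3.07 without S1D4 replicate 1. IL36B, an interleukin-1 family agonist, was at 0.357, 0.315, 0 and 0.1 CPM in S1D4 and at 0.322, 0, 0.231 and 0 CPM in S2D4. Its S2D30 libraries were at 17.4, 18.4, 14.5 and 17.8 CPM, so nearly all of its level came between day 4 and day 30. Its step to S2D4 did not pass (log2 fold change -0.38, SE 0.89, and 0.16 without replicate 4 of S2D4). IL36B entered the test only through S2D30, so no p is given.

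All 7 growth factors and modulators were higher in S2D4 than in S1D4, against 28.3% of all genes tested. The class had a median of 23.5% of its S2D30 level in S2D4 (29.4% without replicate 4). EREG, epiregulin, was at 1.34, 0.945, 0.858 and 0.802 CPM in S1D4, at 27.5, 22, 25.4 and 5.83 CPM in S2D4 and at 121, 112, 100 and 115 CPM in S2D30. It rose from S1D4 to S2D4 by 4.52 on the log2 scale (SE 0.38, adjusted p = 6.24e-08). AREG, amphiregulin, rose by 4.61 (SE 0.55, adjusted p = 3.04e-06), and its S2D30 libraries split into 24.6 and 25.6 CPM in replicates 1 and 4 and 14.5 and 12.5 CPM in replicates 2 and 3. Over all members, replicates 1 and 4 of S2D30 both lay above 2 and 3 in 15 and both below in 26. The share of all genes so split was not worked out. Over all genes with enough counts, chi-square per degree of freedom was 4.04 and 4.23 within these pairs and 11.8 to 25.6 across them. BMP2, a bone morphogenetic protein, rose by 4.81 (SE 0.53, adjusted p = 1.28e-06) and its extracellular modulator BMPER by 5.52 (SE 0.61, adjusted p = 1.38e-06). BMP2 was at 57.4 ± 6.09 CPM in S2D30 and BMPER at 26.8 ± 2.41 CPM. FST (follistatin, which binds activins), RSPO3 (a Wnt-enhancing R-spondin) and SMOC1 rose by 2.86, 4.49 and 3.61.

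Of 7 proteases and inhibitors, 4 rose in S2D4, 1 fell and 2 did not pass, against 28.3% higher and 26.8% lower of all genes tested. MMP3, stromelysin-1, was at 0.626, 0.367, 0.334 and 0.200 CPM in S1D4, at 30.3, 22.9, 21.2 and 1.78 CPM in S2D4 and at 250, 172, 174 and 249 CPM in S2D30. MMP10, stromelysin-2, was at 31.4, 29.1, 29.6 and 1.08 CPM in S2D4, where replicate 4 lay inside the S1D4 range of 0.572 to 1.21 CPM, and at 193 ± 12 CPM in S2D30. MMP3 rose by 5.77 (SE 0.73, adjusted p = 5.42e-06) and MMP10 by 4.77 (SE 0.68, adjusted p = 2.04e-05). ADAMTS5, an aggrecan-cleaving protease, rose by 4.73 (SE 0.55, adjusted p = 2.35e-06), and the prohormone convertase PCSK1 by 5.07 (SE 0.46, adjusted p = 1.65e-07). For PCSK1, S2D4 replicates 1 to 3 (49.5, 46.2 and 49.5 CPM) lay above each S2D30 library (35.2 to 45.2 CPM). Its S2D4 replicate 4, at 8.34 CPM, lay below every one.

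SPINK4, a Kazal-type protease inhibitor, ran the other way. It was at 0.293, 0.0928, 0.366 and 0.312 CPM in untreated cells and at 8.13, 7.40, 9.06 and 13.2 CPM in S1D4. In S2D4 it was at 1.10, 0.851 and 0.925 CPM in replicates 1 to 3 and at 6.88 CPM in replicate 4, and in S2D30 at 18.5, 18.5, 17 and 14 CPM. Each S2D4 library thus lay below each S1D4 library and below each S2D30 library. It fell by 1.62 on the log2 scale from S1D4 to S2D4 (SE 0.51, adjusted p = 0.0133) and by 3.10 without replicate 4 (adjusted p = 2.75e-08), while a model of those 8 libraries alone gave an adjusted p of 0.0626. Its relative SPINK1 was at 0.0583 CPM or less in every S2D4 library and at 19.3 ± 2.98 CPM in S2D30. SPINK1 and the kallikrein KLK4 did not pass the test from S1D4 to S2D4. Both entered that test only through their S2D30 counts, which chose them, so no p is given.

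**Figure D3:**
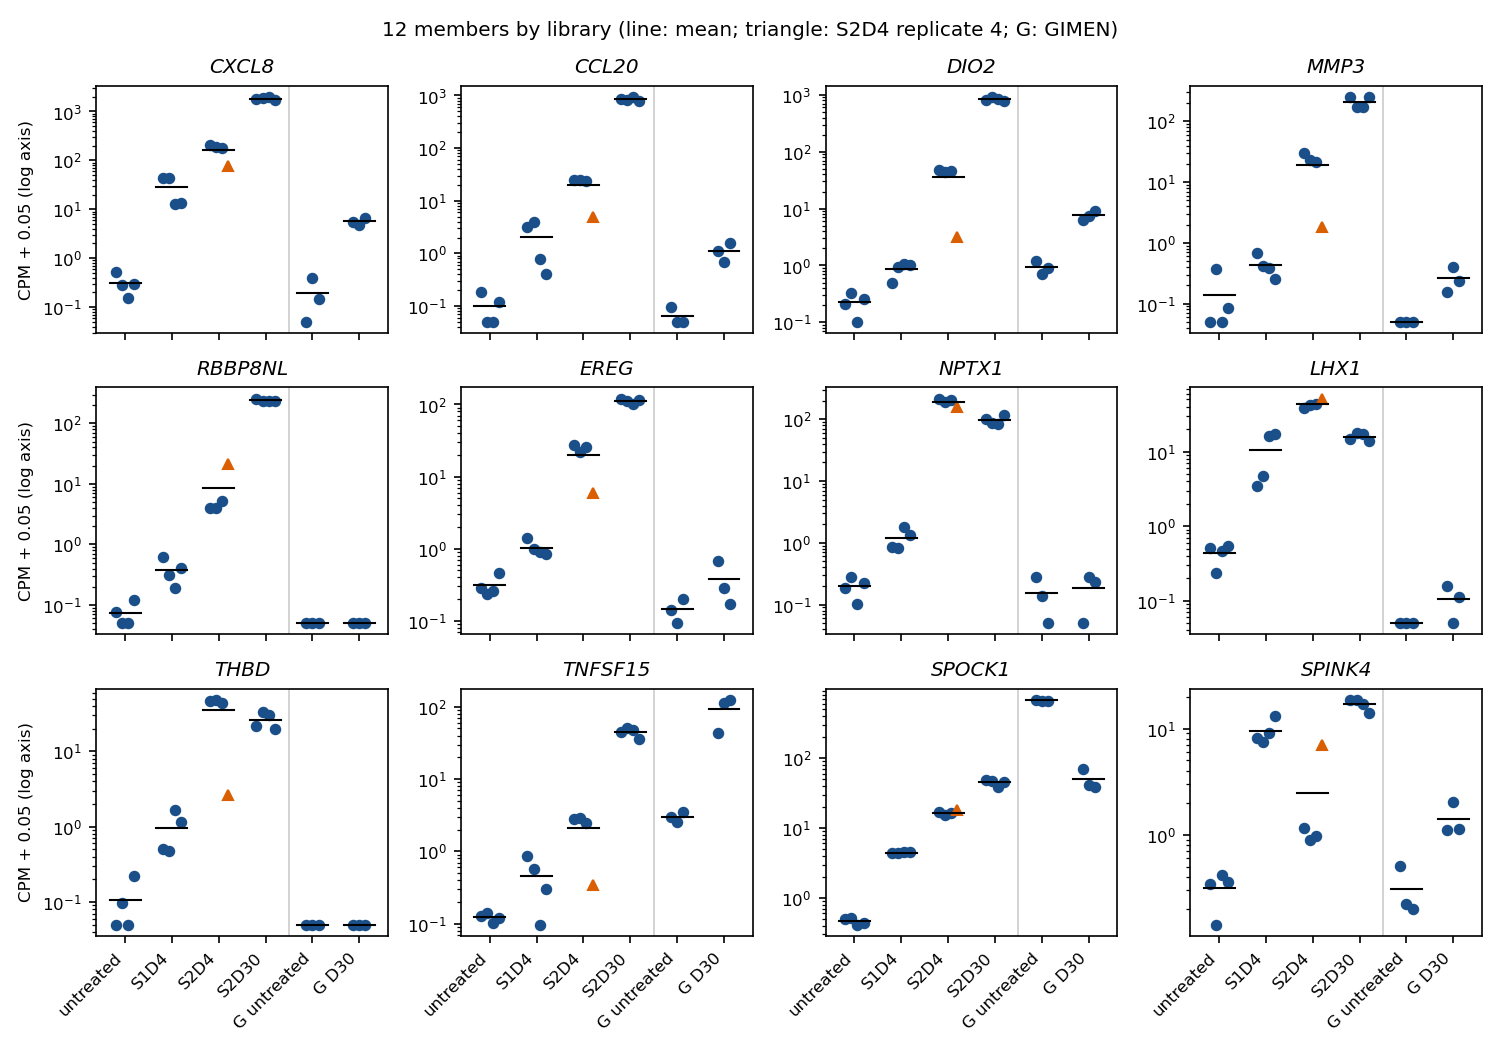
Level of 12 members in each library (points) of the 6 groups, as CPM + 0.05 on log axes, with the group mean as a line, S2D4 replicate 4 as a triangle and GIMEN to the right of the grey line. CXCL8 climbs at each step to between 1706 and 1956 CPM, NPTX1 and LHX1 are higher in S2D4 than in S2D30, SPINK4 dips in S2D4, and SPOCK1 starts high in GIMEN.

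The matrix and other secreted proteins came up at different times. NPTX1, the secreted neuronal pentraxin-1, was at 0.804, 0.787, 1.76 and 1.30 CPM in S1D4 and at 216, 190, 204 and 158 CPM in S2D4. It was lower in S2D30, at 99.3, 87.4, 83.4 and 115 CPM, and the groups did not overlap. Its step from S1D4 to S2D4 was 7.56 on the log2 scale (SE 0.21, adjusted p = 3.01e-13). SPOCK1, a testican proteoglycan, was at 4.29 to 4.48 CPM in S1D4 and 15.1 to 18.2 CPM in S2D4, a rise of 2.13 (SE 0.11, adjusted p = 4.43e-10) in which replicate 4 was the highest library, and it was at 44.9 ± 4.35 CPM in S2D30. LAIR2, a secreted collagen receptor, had no counts in S1D4 and was at 0.735, 1.22, 0.416 and 0.0292 CPM in S2D4, at least 4.11-fold higher with 3 counts allowed per S1D4 library. It entered the test only through its S2D30 counts, so no p is given.

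PNLIPRP3, of the pancreatic lipase family, was at 0.185 CPM or less in S2D4 and at 21.7 to 27.1 CPM in S2D30. It had 8 counts in S2D4 against 1 in S1D4 and entered the test of that step only through S2D30. No p is given for it, and its call there was lost without any S2D4 replicate from 1 to 3 or any S1D4 replicate from 1 to 3. COL22A1, a collagen of tissue junctions, rose by 4.40 (SE 0.68, adjusted p = 4.34e-05), with 1.20 CPM in S2D4 replicate 4 and 20.8 to 22.4 CPM in the others. The skin-barrier genes DMKN and SBSN rose by 2.33 and 2.57 to 0.630 and 1.34 CPM on average and stood at 19.5 and 19.8 CPM in S2D30. DMKN and SBSN entered the test only through their S2D30 counts. The lectin COLEC10 did not pass (log2 fold change -0.06, and 0.10 without replicate 4 of S2D4) and was at 11.3 ± 1.03 CPM in S2D30. It too entered the test only through S2D30, so no p is given.

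All 7 membrane proteins rose between S1D4 and S2D4, against 28.3% of all genes tested. The rises ran from THBD by 5.48 on the log2 scale to TM4SF19 by 1.17. Of these membrane proteins, IL7R and RHCG entered the test only through their S2D30 counts, which chose them. THBD, thrombomodulin, was at 46.7, 48.2, 44.3 and 2.57 CPM in S2D4 and at 21.8, 33.5, 30.4 and 19.8 CPM in S2D30, so S2D4 replicates 1 to 3 lay above every S2D30 library and replicate 4 below every one. The interleukin-7 receptor IL7R was at 1.24, 1.17, 1.62 and 0.437 CPM in S2D4 and at 36.6 ± 2.43 CPM in S2D30. PDCD1LG2, the checkpoint ligand PD-L2, was among the members nearest the upper limit, with a lowest S2D30 library of 10.1 CPM, and it rose in S2D4 by 2.78 (SE 0.42, adjusted p = 3.18e-05). IL1RAPL1, ADTRP and the ammonium transporter RHCG rose by 3.35, 2.01 and 1.78.

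The 5 transcription factors all rose from S1D4 to S2D4, against 28.3% of all genes tested. Their class median in S2D4 was 40.8% of the S2D30 level (47.7% without replicate 4). IRX4, an Iroquois homeobox factor, was at 0.268, 0.157, 0.143 and 0.0501 CPM in S1D4, at 18.9, 17.6, 17.9 and 7.61 CPM in S2D4 and at 39.2, 34.6, 36.9 and 41.1 CPM in S2D30. Its step of 6.76 (SE 0.35, adjusted p = 3.94e-10) kept the groups apart. EGR2, an early-response zinc-finger factor, was at 18.4, 18.9, 19.3 and 18.3 CPM in S2D4 and at 15.3 to 18.8 CPM in S2D30, so it had reached its day-30 level by day 4, in replicate 4 too (rise 3.72, SE 0.19, adjusted p = 3.09e-10). LHX1, a LIM homeobox factor, was at 3.40, 4.72, 16.1 and 17.0 CPM in S1D4, at 38.5, 42.7, 43.1 and 51.3 CPM in S2D4 and at 14.7, 17.6, 17.0 and 13.7 CPM in S2D30. Its S2D4 libraries lay above all others, and the lower S1D4 pair was replicates 1 and 2, the higher pair for CXCL8. NFATC2 and GATA6 rose by 2.37 and 3.83 to 2.41 and 2.49 CPM and were at 13 and 11.2 CPM in S2D30.

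The 6 intracellular enzymes and signalling regulators rose from S1D4 to S2D4, against 28.3% of all genes tested. They had the highest class median, 56% of the S2D30 level (69% without replicate 4). DIO2, the deiodinase that activates thyroid hormone, was the late exception. It was at 0.447, 0.892, 1.00 and 0.952 CPM in S1D4, at 47.9, 44.5, 45.8 and 3.09 CPM in S2D4 and at 822, 909, 847 and 779 CPM in S2D30. Its step to S2D4 was 5.61 on the log2 scale (SE 0.64, adjusted p = 1.85e-06), and its S2D4 mean was 4.21% of the S2D30 mean (5.49% without replicate 4). RASA3, a Ras GTPase-activating protein, rose by 5.25 (SE 0.43, adjusted p = 5.26e-08), and GALNT9, a glycosyltransferase that starts mucin-type O-glycans, by 5.50 (SE 0.41, adjusted p = 1.46e-08). UBE2QL1, a ubiquitin-conjugating enzyme homologue, rose by 6 (SE 0.56, adjusted p = 2.22e-07), ARHGAP6, a GTPase-activating protein, by 2.01 (SE 0.24, adjusted p = 3.25e-06) and the cytosolic phospholipase PLA2G4A by 3.34 (SE 0.50, adjusted p = 3.46e-05).

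Of the cytoskeletal, muscle and calcium-binding genes, 5 of 6 rose in S2D4, against 28.3% of all genes tested. KLHL38 did not pass (0.231 CPM or less in S2D4, 19.9 ± 2.31 CPM in S2D30). KLHL38 and DAW1, which rose, entered the test only through their S2D30 counts. XIRP2, an actin-binding protein of striated muscle, was at 60.8, 57.0, 62.5 and 8.14 CPM in S2D4 and at 10.7, 15.7, 10.2 and 13 CPM in S2D30. Its replicates 1 to 3 were above every S2D30 library and replicate 4 below every one. DYSF (dysferlin, a membrane-repair protein of muscle), CALB2 (calretinin), KRT79 and DAW1 rose by 2.47, 2.93, 2.2 and 5.06; without S1D4 replicate 1 the rise of CALB2 was 3.62, and without S1D4 replicate 3 that of DAW1 was 5.73. Among the pseudogenes and genes of unassigned function, RBBP8NL was at 4.00, 3.94, 5.22 and 21.3 CPM in S2D4 and at 257, 238, 234 and 236 CPM in S2D30. It is among the 7 members for which replicate 4 was the highest S2D4 library, and its rise was 4.94 (SE 0.65, adjusted p = 7.93e-06), or 3.85 without that library (adjusted p = 1.23e-09). The pseudogenes FAM90A15P, FAM90A17P and FAM90A24P reached 1.41, 4.28 and 3.21 CPM in S2D4 and 13.7, 20.2 and 14.5 CPM in S2D30, and all 3 passed the test. FAM90A15P had a single count in the 4 S1D4 libraries, so no fold is given, and 100% of its sequence and 76.8% of that of FAM90A24P also occur in other genes, so their counts are uncertain. CH507-9B2.1 was on in S2D4 at 11.8, 12.2, 12.9 and 28.5 CPM, while C15orf48 did not pass.

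Most of the 62 genes were silent in untreated GIMEN as well. There, 46 were off, 12 were between and 4 were on: SPOCK1, FST, RASA3 and PDCD1LG2. In GIMEN D30, 6 were on (FST, TNFSF15, RASA3, SPOCK1, CALB2 and IL1RAPL1), 31 were between and 25 off. Off in both GIMEN groups were 24, of which 7 had no count in any of the 6 libraries. At these depths 3 counts equal 0.129 to 0.182 CPM, the level that a count of 0 allows. The median member stood in GIMEN D30 at 1.01% of its S2D30 level, at lower doses of both compounds and in another medium.

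In GIMEN, 30 members had enough counts to be tested, and 32 did not. Of the 62, 23 were higher in D30 (37.1%, against 35.5% of the 13517 genes tested), 5 were lower (8.06%, against 36%), and RASA3 and MMP10 did not pass. These shares are not compared: those of members are over all 62, with the 32 not tested, and those of other genes over tested genes only, and a member that was near 0 in untreated GIMEN could be tested only if it was higher in D30. Each D30 library lay above each untreated library for 32 members (against 41.7% of all genes tested) and below for 5 (against 33.5%). Higher in both S2D4 and GIMEN D30 were 18 members, and 5 were higher in S2D4 and lower in GIMEN D30. The share of all genes with such joint calls was not worked out, and 32 members were not tested in GIMEN. These joint counts are therefore not read as shared or opposed regulation.

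TNFSF15 rose in GIMEN too. It was at 2.91, 2.54 and 3.42 CPM untreated and at 43.9, 112 and 124 CPM in D30, a rise of 4.89 on the log2 scale (SE 0.38, adjusted p = 3.86e-07), beside 36.3 to 51.5 CPM in S2D30. CALB2 went from 1.18, 1.07 and 2.13 CPM to 31.3, 38.6 and 39.0 CPM (rise 4.55, SE 0.19, adjusted p = 2.10e-09). IL1RAPL1 rose by 0.92 (SE 0.11, adjusted p = 1.65e-05) and PCSK1 by 3.34 (SE 0.19, adjusted p = 3.20e-08), to 19.3 ± 2.11 and 9.90 ± 0.634 CPM (SD, n = 3). FST was high throughout, at 114, 113 and 122 CPM untreated and 112, 240 and 288 CPM in D30. The groups overlapped, and its rise of 0.78 (SE 0.24, adjusted p = 0.0122) was lost without D30 replicate 2 (0.0556) or replicate 3 (0.0539). RASA3 was at 81.0 to 85.3 CPM untreated and 87.9 to 93.4 CPM in D30, with a log2 difference of 0.04 (SE 0.06, adjusted p = 0.532).

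LAIR2, CCL3L3, PNLIPRP3 and IL36B had no counts in untreated GIMEN. In D30, LAIR2 was at 10.9, 4.92 and 7.78 CPM, at least 57.1-fold higher with 3 counts allowed per untreated library. The bounds were at least 14-fold higher for CCL3L3, 10.8-fold for PNLIPRP3 and 9.34-fold for IL36B. These genes entered the test only through their D30 counts, so no p is given. CCL3L3, PNLIPRP3 and IL36B were off in S2D4 as well. The chemokines reached low levels. CXCL8 was at 0, 0.344 and 0.0992 CPM untreated and at 5.47, 4.80 and 6.56 CPM in D30. Its rise was 5.05 on the log2 scale (SE 0.48), and 6.61 without untreated replicate 2, which held 8 of its 10 untreated counts. CCL20 had 1 count in untreated GIMEN and was at 1.05, 0.636 and 1.52 CPM in D30. COL22A1, also with 1 untreated count, was at 1.16, 0.694 and 1.28 CPM in D30. CXCL8, CCL20 and COL22A1 also entered the test only through their D30 counts, so no p is given. CXCL5, CXCL2, CCL3, EREG, MMP3, IL24 and IL1RN were too low in GIMEN to be tested, and AREG, ADAMTS5, THBD and RBBP8NL had no counts there.

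The 5 members that fell in GIMEN were SPOCK1, RSPO3, DYSF, GATA6 and PDCD1LG2. SPOCK1 was at 680, 662 and 659 CPM untreated and at 69.2, 41.2 and 38.3 CPM in D30, so it fell by 3.83 on the log2 scale (SE 0.19, adjusted p = 1.24e-08) to about the S2D30 range of 38.6 to 48.6 CPM. RSPO3 was at 0.910, 1.46 and 1.83 CPM untreated and at 0, 0.231 and 0.243 CPM in D30. It fell by 3.23 (SE 0.60), and by 2.62 without D30 replicate 1. RSPO3 entered the test only through its untreated counts, so no p is given. DYSF fell from 4.26 ± 0.225 to 1.04 ± 0.278 CPM (adjusted p = 1.01e-05) and GATA6, an endodermal and cardiac GATA factor, from 9.22 ± 0.321 to 3.14 ± 0.308 CPM (adjusted p = 1.24e-06). PDCD1LG2 went from 12.7, 10.8 and 13.7 CPM to 8.21, 9.31 and 8.26 CPM, with a log2 change of -0.615 (SE 0.13, adjusted p = 0.00103; 0.116 in a model of all 22 libraries). The difference in direction between the lines was not tested, since the SK-N-AS change chose the genes.

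**Figure D4:**
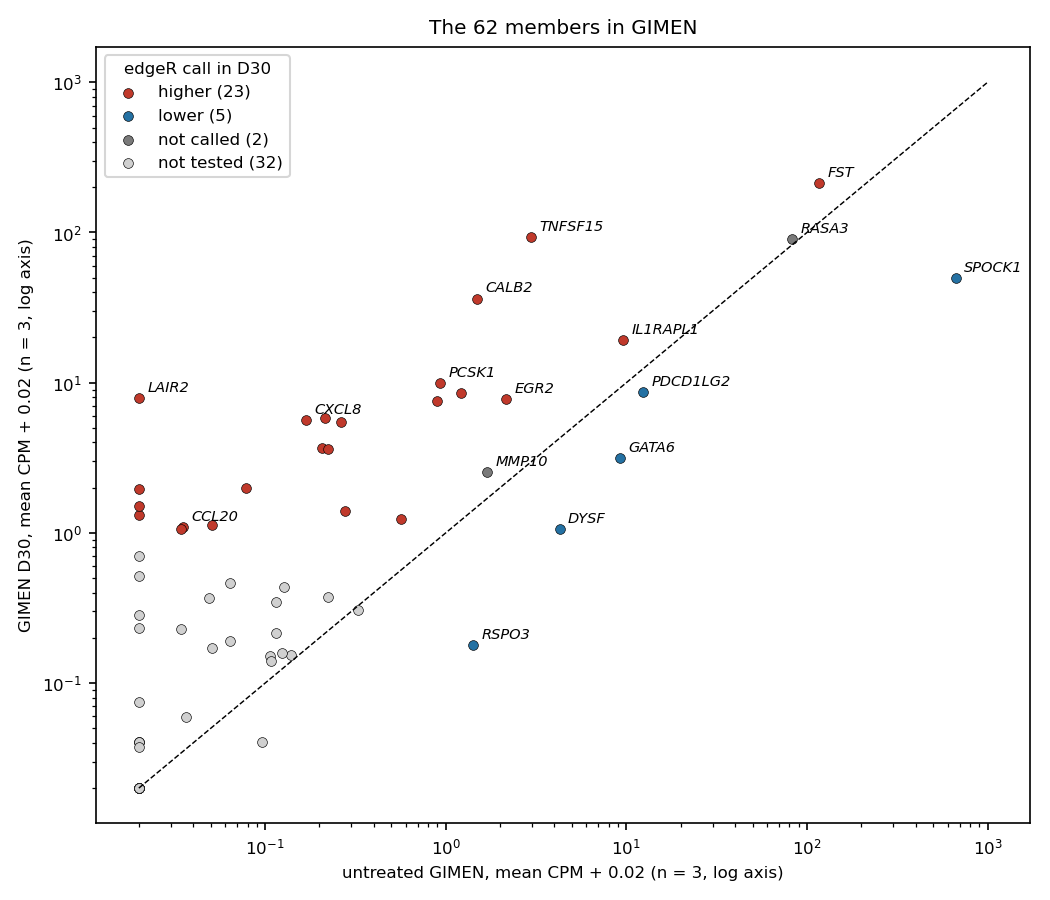
Mean level of each of the 62 members in untreated GIMEN (x axis) and GIMEN D30 (y axis), as CPM + 0.02 on log axes (n = 3 libraries each), coloured by the edgeR call. Points on the dashed line have equal means; TNFSF15, CALB2 and LAIR2 lie above it, SPOCK1, RSPO3, DYSF, GATA6 and PDCD1LG2 below it, and FST and RASA3 at high levels near it.

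Genes of the same pathways were counted in 13 pathway lists. The members on a list were left in, so the counts are not independent of the rule. Of all genes tested, 28.3% were higher and 26.8% lower in S2D4, and 35.5% higher and 36% lower in GIMEN. Of 32 chemokine ligands, 27 were off in untreated SK-N-AS and 5 on in S2D30, all of them members, and of the 16 tested 8 were higher and 3 lower in S2D4 than in S1D4. In GIMEN, 2 were higher and 2 lower of 6 tested. The 5 members are all among the 8 higher in S2D4, and the 2 higher in GIMEN are the members CXCL8 and CCL20. Of 35 cytokines and soluble inhibitors (4 members), 11 were higher and 4 lower of 27 tested in S2D4, and 10 higher and 1 lower of 13 tested in GIMEN. Of 45 growth factors and prohormones (3 members), 19 were higher and 9 lower of 40 tested in S2D4, and 10 higher and 7 lower of 19 in GIMEN. Of 43 secreted proteases and inhibitors (3 members), 8 were higher and 7 lower of 25 in S2D4, and 8 higher and 5 lower of 17 in GIMEN. Of 24 AP-1 and early-response factors, EGR2 alone was a member, and 19 were higher and 1 lower of 23 tested in S2D4, with a median log2 fold change of 1.63 against 0.02 for all genes tested, and 14 higher and 4 lower of 20 in GIMEN. PLA2G4A alone was a member among 46 genes of lipid, retinoid, steroid and prostaglandin metabolism (6 higher and 7 lower of 28 in S2D4, 9 and 1 of 14 in GIMEN). The lists do not hold every gene of their kind. None of the 13 lists held the members KRT79 (a keratin), DMKN and SBSN (skin barrier), RHCG (a transporter) or NPTX1 (a neuronal pentraxin). A list without a member thus does not show that no member has that function. For the remaining lists the counts are given for S2D4 and then GIMEN. No member was among 26 NF-kappa-B subunits and feedback genes (8 higher, 9 lower of 23; 13 and 4 of 21), 36 interferon-stimulated genes (7 higher, 8 lower of 34; 12 and 6 of 30), 35 complement, acute-phase and antimicrobial genes (3 higher, 9 lower of 15; 2 and 4 of 9) or 41 keratin and epithelial barrier genes (5 higher, 4 lower of 16; 3 and 4 of 10). The same held for 44 ion channels and transporters (10 higher, 12 lower of 36; 8 and 9 of 24), 40 neuronal and synaptic genes (8 higher, 13 lower of 36; 6 and 6 of 16) and 22 Toll-like and other innate receptors (2 higher, 2 lower of 15; 8 and 3 of 12).

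Some members are neighbours in the genome. With 61 members placed by RefSeq, 19 lay within 1 Mb of the next member, in 7 groups. On chromosome 4, CXCL8, CXCL5, CXCL2, EREG and AREG share a group with 8 other protein-coding genes, of which CXCL1 and CXCL3 reached a mean of 3.49 and 4.68 CPM in S2D30 and CXCL6, PF4 and PPBP 0.102 CPM or less. On chromosome 11, MMP10 and MMP3 flank MMP1, interstitial collagenase, which had a mean of 1.00 CPM in untreated cells and 9830 CPM in S2D30 and misses the rule only by its untreated level. On chromosome 2, IL36B and IL1RN lie around IL36RN, which was at 0 in untreated cells and at 11.1 CPM in S2D30, with a lowest library of 9 CPM, and CCL20 lies next to DAW1. The remaining groups were CCL3, CCL3L3 and LHX1 on chromosome 17, DMKN and SBSN on chromosome 19, and the 3 FAM90A pseudogenes on chromosome 8.

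The limits of the rule cut through a continuous range. Just inside the upper limit were GATA6 and PDCD1LG2, each with a lowest S2D30 library of 10.1 CPM, and just outside were MYEOV (9.92 CPM) and TNFSF9 (9.83 CPM). Just inside the lower limit were LHX1 and NFATC2, each with a highest untreated library of 0.485 CPM, and just outside were NAT16 and TNFSF14 at 0.511 CPM, which reached at least 68.7 and 75.9 CPM in S2D30.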

How the data were processed

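RNA was measured by paired-end sequencing of total RNA on an Illumina HiSeq X, per the labels' protocols. The authors deposited raw counts per gene symbol for 22 libraries. The aligner, counting tool, strand setting, genome build and annotation are not given in the sources used here, so reads of overlapping or antisense genes cannot be told apart. Groups and replicate numbers come from the labels.

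Levels are CPM by library total, and SD is between libraries. Members and gene lists were chosen with earlier results of these data known, and 1 adrenergic marker is not reported here. Tests used edgeR 4.0.16 in R 4.3.3: filterByExpr (minimum count 10, minimum total 15), TMM scaling, quasi-likelihood F-test, and Benjamini-Hochberg adjustment across every gene in the model, called at 0.05. The model of 16 SK-N-AS libraries kept all 62 members, 14 of them only through S2D30, and that of 6 GIMEN libraries kept 30. Standard errors are those of log2 fold changes. A fold against a group at 0 used 3 counts per library, covering counting error only. The scripts were tested on simulated data. No library pair agreed within sampling noise (chi-square per degree of freedom 2.73 to 122). Alternatives were DESeq2 1.42.0 and other scalings, filters, models and left-out replicates.

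Genes described with full values follow a set rule: the 8 with the highest S2D30 mean, the leading 4 of each timing class, the largest called changes (5 higher and 3 lower in S2D4, 6 higher and 3 lower in GIMEN), those next to each limit, list members, and those on in both GIMEN groups. Other members are named to complete their class, with their values known. Exon lengths and shared stretches of 75 bases come from GENCODE v29 (59 members matched), start sites, neighbours and promoter sequence from RefSeq GRCh38.p14.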

Additional observations from a re-analysis of the deposited data

Results flagged for a closer look

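A library counted as far from the rest of its group of 4 when its gap to the nearest other library took most of the whole range of the group, a limit that chance passes in about 1 of 20 groups. S2D4 replicate 4 was such a lowest library for 24 members and such a highest library for 3. In S1D4, replicate 4 was the outlying highest library for 3 members and replicate 1 for 1. In the untreated SK-N-AS group, replicates 1, 2, 3 and 4 were so for 2, 2, 1 and 2 members. In S2D30, replicate 3 was the outlying highest library for 1 member and replicate 4 the outlying lowest for 1. The share of all genes with such a library was not worked out.

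SPOCK1, RSPO3, DYSF, GATA6 and PDCD1LG2 were lower in GIMEN D30 than in untreated GIMEN, while the rule required them to be higher in S2D30 than in untreated SK-N-AS. The log2 fold changes in GIMEN were -3.831 for SPOCK1, -3.234 for RSPO3, -2.135 for DYSF, -1.646 for GATA6 and -0.615 for PDCD1LG2. The difference between the lines was not tested.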

How the results depend on the processing

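Stricter limits (0.25 and 20 CPM) left 21 members and looser ones (1 and 5 CPM) gave 181, while leaving out 1 library at a time gave 62 to 70. With "on" set at over 5 or over 20 CPM, 2 or 0 members were on in S1D4, 13 or 3 in S2D4 but not S1D4, and 11 were on in GIMEN D30 at over 5 CPM. Leaving out S2D4 replicate 4 moved the members on in S2D4 but not S1D4 from 6 to 25 and those not on by S2D4 from 55 to 36. Without any other single S1D4 or S2D4 library they stayed at 6 and 55. The count lower in S2D4 was 0 with only the 8 libraries compared, and 0 with DESeq2, which gave SPINK4 no adjusted p. Counts higher ranged from 46 to 55 in S2D4 and from 21 to 29 in GIMEN over all alternatives. The log2 change of IL36B in S2D4 against S1D4, -0.377 with all libraries, ran from -1.216 to 0.159 over left-out libraries and was positive without S1D4 replicate 1 (0.139) or S2D4 replicate 4 (0.159). That of MMP10 in GIMEN D30 against GIMEN untreated, 0.510, ran from -0.284 (without D30 replicate 1) to 0.845. None of these passed the threshold. Apart from the smaller sets of libraries, the cause of these moves was not tested. Reads carry no molecular identifiers, and genes near 0 in GIMEN limit what could be tested there.

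A fit with the replicate number as a block gave 53 higher and 1 lower in S2D4 and 23 higher and 5 lower in GIMEN. Same-numbered libraries had deviations that correlated at 0.0791 or less, and not every library correlated best with its own number, so the numbers were not taken to pair the libraries.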
